A study of Homo sapiens with 12 samples.

Results

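The BCL2 family decides whether mitochondria release cytochrome c and start the caspase cascade. Its RNA levels were read for 10 genes, chosen by name, out of 63677 in the count table. They were 3 anti-apoptotic members (BCL2, BCL2L1 and MCL1), the 2 effectors BAK1 and BAX, and 5 BH3-only members (BMF, BID, BAD, BBC3 and BCL2L11). All 10 were found, and 9 passed the filter on low counts; BCL2L11 did not and was not tested. The cells were HPB-ALL, a human line from T-cell acute lymphoblastic leukaemia, in 12 libraries of strand-specific total RNA. Lentiviruses had introduced doxycycline-inducible TAL1 (the line labelled T5), LMO1 (L4) or both (C25), and each line received doxycycline (DOX) or DMSO, with 2 libraries per group. All 6 groups shared growth in tetracycline-free serum and drug selection for 36 h, begun 48 h after infection. How much DOX was used and for how long is not stated, nor whether a line is 1 clone. The line with both transgenes is called the double line. No line without a transgene was analysed here, so line and transgene cannot be told apart between lines. Within a line, an effect of DOX itself cannot be told apart from that of the induced transgene.

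Anti-apoptotic members hold BAX and BAK1 in check, and BH3-only members relieve that hold or activate the effectors directly; once active, BAX and BAK1 form pores in the outer mitochondrial membrane. T-cell precursors depend on BCL2, BCL2L1 and MCL1 at different stages, and the balance of these proteins governs the survival of leukaemic T cells. The helix-loop-helix factor TAL1 binds DNA at E-boxes with E proteins, and the adaptor LMO1 joins such factors into a complex.

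The libraries held 14865073 to 15917713 counts. Levels are given as CPM, a library's counts relative to its scaled size, and errors as the SD of both libraries in a group (n = 2). The TAL1 transgene went from 3.97 ± 0.13 to 39.2 ± 5.3 CPM with DOX in the TAL1 line and from 5.21 ± 3.0 to 900 ± 45 CPM in the TAL1/LMO1 line. LMO1 went from 2.84 ± 1.5 to 226 ± 19 CPM in the LMO1 line and from 3.67 ± 4.6 to 1540 ± 53 CPM in the TAL1/LMO1 line. The line with both transgenes thus also had the highest levels of each, and transgene number and amount cannot be told apart. Of 10 T-cell leukaemia markers, 7 were above 10 CPM in every library, while CD7, CD2 and PTCRA were as low as 2.62, 0.327 and 1.55 CPM; the markers summed to 2160 to 2420 CPM. The 4 B-cell markers summed to at most 5.21 CPM, and those of myeloid, erythroid and epithelial or stromal cells to at most 1.41, 0.192 and 0.196 CPM. In the double line the B-cell sum was 0.515 to 1.15 CPM with DMSO and 0.311 to 0.430 with DOX, and the myeloid sum 0.515 to 0.770 and 1.1 to 1.4 CPM; their part in the results was not tested.

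Per kilobase of exon (GENCODE 29 gene lengths), MCL1 had the highest level of the 10 genes in all 6 groups, with a mean of 42.9 CPM per kb over the libraries, followed by BCL2L1 with 26.9. Next came BAX with 21.0 and BAK1 with 19.2 CPM per kb, whose order was not fixed: BAX was the higher in 7 of 12 libraries. BID (15.9), BAD (13.8) and BMF (11.4 CPM per kb) also changed places between groups. BMF ranked 7 in 4 of the 6 groups, 6 in the TAL1/LMO1 line with DOX and 4 in the LMO1 line with DOX, and BID ranked 7 in the TAL1/LMO1 line with DOX. BCL2, with 4.27 CPM per kb, lay below all of these in every library, also in the TAL1/LMO1 line with DOX, where it reached 8.41 CPM per kb. BBC3 (0.823) and BCL2L11 (0.0379 CPM per kb) were the lowest in every group. Over the 6 groups, the mean log2 level spanned 1.70 for BMF, 1.67 for BCL2 and 1.53 for BBC3, against 0.65 for BID, 0.52 for BAX, 0.42 for BAK1, 0.40 for BAD, 0.23 for MCL1 and 0.16 for BCL2L1. MCL1 and BCL2L1 thus had the narrowest spans of the 9 tested genes.

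**Figure D1:**
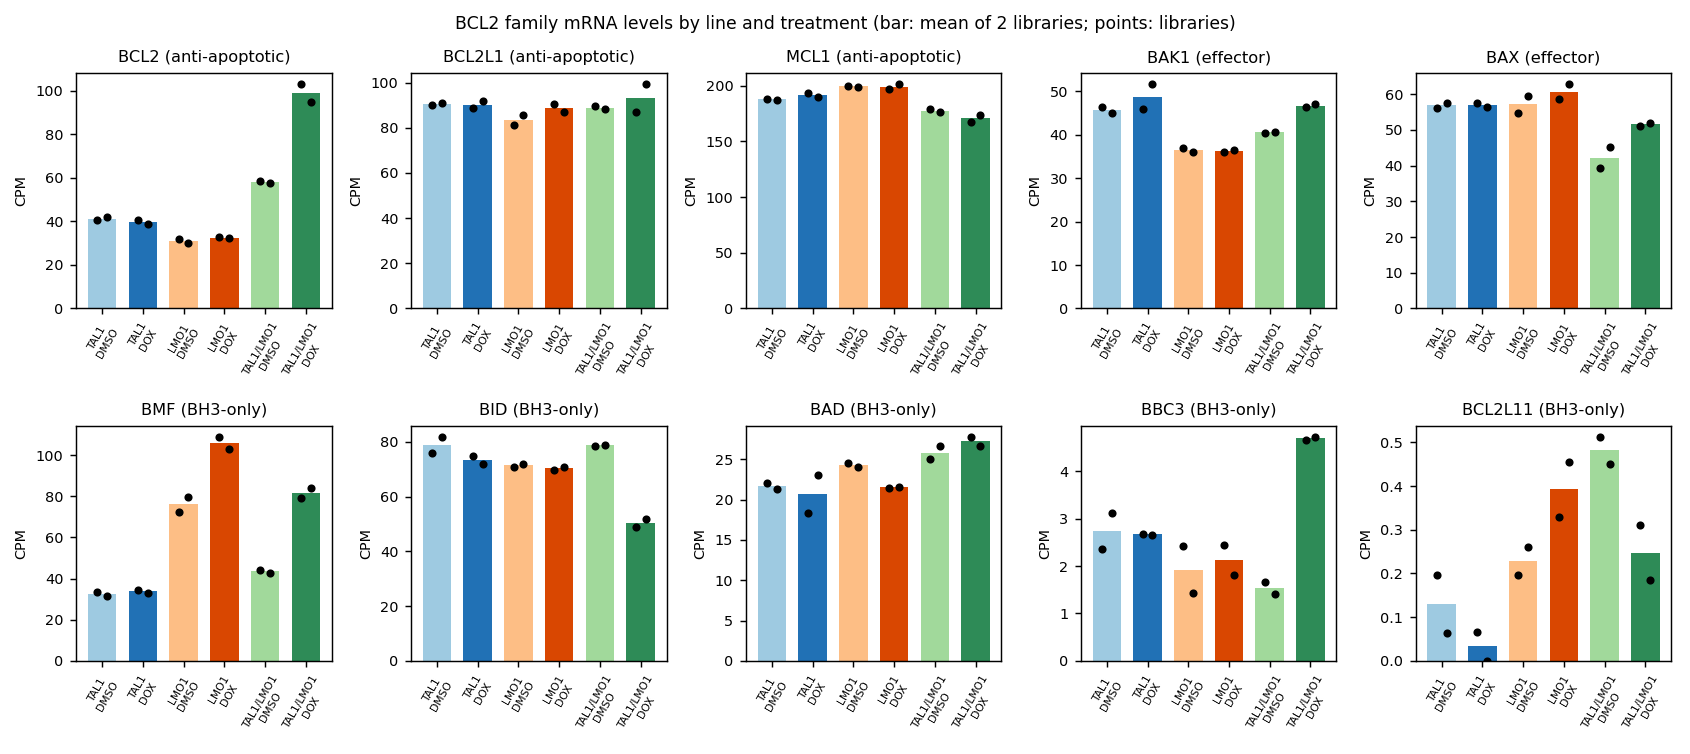
Levels of the 10 members in CPM (linear axes from 0, scaled separately for each gene), with bars for the mean of 2 libraries and points for the libraries. With DOX in the TAL1/LMO1 line BCL2 and BBC3 are highest and BID is lowest, BMF is highest with DOX in the LMO1 line, and BCL2L11 stays at or below 0.513 CPM.

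With DOX in the TAL1/LMO1 line, BCL2, BMF and BBC3 rose, BAX and BAK1 rose slightly and BID fell, while BCL2L1, MCL1 and BAD did not pass the test. In the LMO1 line BMF alone of the 9 tested members rose, and in the TAL1 line 0 were called, 0 had an unadjusted p under 0.05, and DESeq2's test called 0. A call is an adjusted p under 0.05 in edgeR's quasi-likelihood test over all 16287 genes. In the TAL1/LMO1 line 5 members were higher and 1 was lower, where 60.2% of all genes were called (28.5% higher and 31.7% lower), so a share of 6 in 9 is near the background of all genes. The median change of the members in that line was 0.20 on the log2 scale, against -0.01 over all genes, and their median size of change was 0.29 against 0.41. In the LMO1 line 2.14% of all genes were called (1.18% higher), and in the TAL1 line 1.84%. The libraries of DOX and DMSO did not overlap for 8 of 9 members in the TAL1/LMO1 line (78.2% of all genes), 5 in the LMO1 line (41.1%) and 3 in the TAL1 line (42.0%). Whether replicates were separate cultures is not stated, so a p-value here covers the spread of the libraries, which may be technical. In bulk RNA, fewer cells with a transcript and less of it per cell cannot be told apart.

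**Figure D2:**
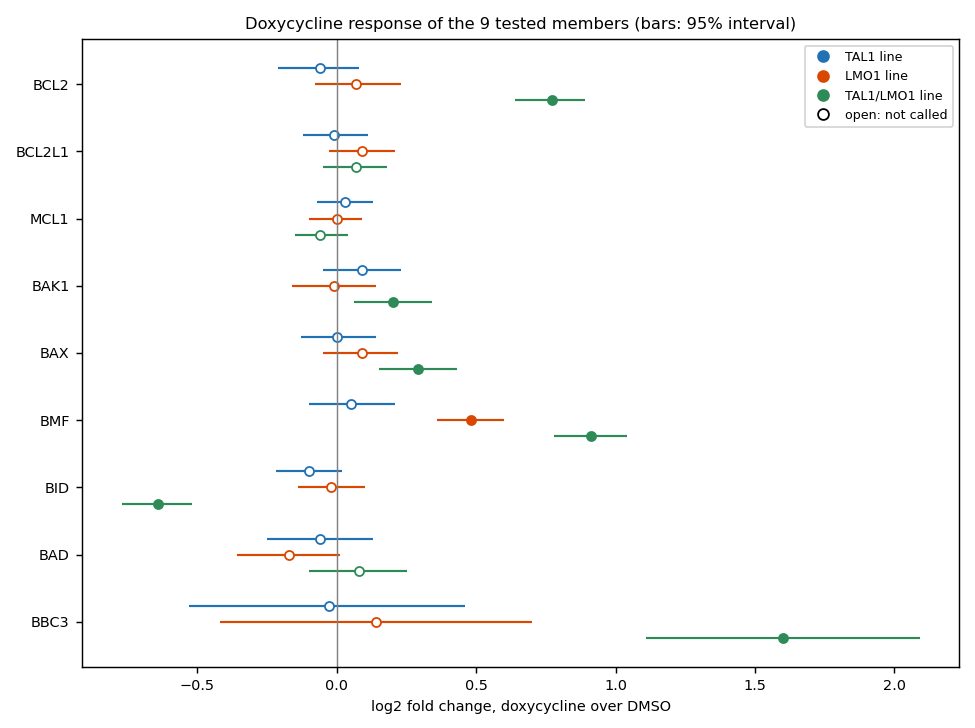
Change with DOX over DMSO on the log2 scale for the 9 tested members in each line; points are the estimates, bars the 95% interval, and filled points are called. BCL2, BMF, BBC3 and BID in the TAL1/LMO1 line and BMF in the LMO1 line lie farthest from 0.

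BCL2 encodes the founding survival protein of the family. Its levels in the TAL1 line were 40.6 and 42.1 CPM with DMSO and 40.5 and 38.7 with DOX. The LMO1 line had 31.9 and 29.9, then 32.8 and 32.2 CPM, and the TAL1/LMO1 line 58.6 and 57.8, then 103 and 95.1 CPM. Both DOX libraries of the double line stood above all 10 others, and its DMSO libraries stood above those of the single lines. The rise in the double line was 0.77 on the log2 scale (SE 0.06, 1.70-fold, 95% interval 0.64 to 0.89, edgeR adjusted p = 2.3e-18). The changes in the TAL1 line (-0.06, 95% interval -0.21 to 0.08) and the LMO1 line (0.07, -0.08 to 0.23) did not pass the test. The response of the double line exceeded that of the TAL1 line by 0.83 (SE 0.10, edgeR adjusted p = 1.2e-11) and that of the LMO1 line by 0.69 (SE 0.10, 1.3e-08). It exceeded the single responses added together (log2) by 0.76 (SE 0.12, adjusted p = 5.2e-07). These contrasts share libraries and are not independent. Against the TAL1 line 4 members were higher and 1 lower, where 43.8% of all genes were called (18.4% higher, 25.4% lower). Against the LMO1 line it was 3 higher and 1 lower, where 45.4% were called (19.1% and 26.4%), and against the sum 3 and 1, where 34.7% were called (13.3% and 21.4%). The authors' deposited table gives 0.76 for BCL2 in the double line, with an adjusted p of 3.2e-16.

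The promoter of BCL2 is shown because the gene moved in the line that carries both an E-box-binding factor and its partner. Promoter windows of 300 bases around a gene's start came from RefSeq (GRCh38.p14), and 9 of the 10 members had 1 or more, 16 windows in all; MCL1 had none in the table. In the sequences printed here, read 5′ to 3′ on the gene's strand, capitals mark the E-box CANNTG and, on either strand, TGTGGT, the core that RUNX factors bind. The BCL2 window, chr18:63319720-63320019 on the minus strand, holds 1 TGTGGT core and no CANNTG.
BCL2 window: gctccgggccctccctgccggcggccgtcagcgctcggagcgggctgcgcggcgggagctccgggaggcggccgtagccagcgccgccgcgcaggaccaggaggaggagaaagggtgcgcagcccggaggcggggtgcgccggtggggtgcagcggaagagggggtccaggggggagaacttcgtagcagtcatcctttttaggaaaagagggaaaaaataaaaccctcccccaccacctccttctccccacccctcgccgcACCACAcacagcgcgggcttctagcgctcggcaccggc
That core was found in 2 of the 16 windows (BCL2 and BCL2L1) and in 13.1% of 35116 windows of all genes. A match is only a description of the letters.

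BCL2L1, the gene of the survival protein BCL-XL, stayed near 90 CPM. It read 90.3 and 90.8 CPM with DMSO and 88.6 and 91.8 with DOX in the TAL1 line, and 81.2 and 85.6, then 90.7 and 86.9 CPM in the LMO1 line. The double line read 89.5 and 88.2, then 86.9 and 99.2 CPM, with the DOX libraries on either side of the DMSO ones. The changes were -0.01 (95% interval -0.12 to 0.11), 0.09 (-0.03 to 0.21) and 0.07 (-0.05 to 0.18) on the log2 scale, none called. With library totals in place of scaling factors, the change in the double line was 0.16 with an edgeR adjusted p of 0.012.

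MCL1, a short-lived survival protein whose mRNA had the highest level of the 10 genes, read 188 and 187 CPM with DMSO and 193 and 190 with DOX in the TAL1 line. The LMO1 line read 200 and 199, then 197 and 201 CPM, and in the TAL1/LMO1 line 179 and 176, then 167 and 174 CPM. Every library of the double line lay below every library of the single lines. The changes with DOX were 0.03 (95% interval -0.07 to 0.13), 0.00 (-0.10 to 0.09) and -0.06 (-0.15 to 0.04), none called. The intervals of BCL2L1 and MCL1 in all lines thus stayed within 0.21 of 0 on the log2 scale.

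BAK1, an effector that sits in the mitochondrial membrane, read 46.3 and 45.0 CPM with DMSO and 46.0 and 51.6 with DOX in the TAL1 line. The LMO1 line read 36.9 and 36.0, then 36.1 and 36.5 CPM, and in the TAL1/LMO1 line 40.5 and 40.7, then 46.3 and 47.0 CPM. Both DOX libraries exceeded both DMSO libraries in the double line, and the groups overlapped in the other two. The rise was 0.20 (SE 0.07, edgeR adjusted p = 0.012), and the difference from the responses of the single lines was not called (0.11, adjusted p = 0.42, against TAL1; 0.21, 0.096, against LMO1). The call was lost with no filter on low counts (adjusted p = 0.082) and without 1 library of the double line: DMSO replicate 1 (0.075), DMSO replicate 2 (0.066) or DOX replicate 2 (0.083). The authors' deposited table gives it an adjusted p of 0.17.

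BAX, the effector that moves from the cytosol to mitochondria, read 56.2 and 57.6 CPM with DMSO and 57.5 and 56.4 with DOX in the TAL1 line. The LMO1 libraries read 54.7 and 59.6, then 58.6 and 62.7 CPM. The double line read 39.3 and 45.2, then 51.1 and 52.0 CPM. The DMSO libraries of the double line were the lowest of the 12, and its DOX libraries lay between them and those of the single lines. The rise there was 0.29 (SE 0.07, 1.22-fold, edgeR adjusted p = 3.1e-04), and 0.18 (adjusted p = 0.072) without DMSO replicate 1 of that line. It exceeded the response of the TAL1 line by 0.29 (SE 0.10, adjusted p = 0.013), a call lost with no filter (0.052) and without TAL1 DMSO replicate 2 (0.066), TAL1 DOX replicate 2 (0.052), DMSO replicate 1 (0.18, adjusted p = 0.20) or DOX replicate 2 of the double line (0.050 after rounding). It was not called against the LMO1 line (0.20, adjusted p = 0.087), where it was 0.09 without DMSO replicate 1 of the double line, 0.29 (0.026) without DMSO replicate 2 and 0.28 (0.013) with library totals.

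BMF, a BH3-only protein held at the cytoskeleton by a dynein light chain, was the one member with a called rise in 2 lines. It read 33.5 and 31.7 CPM with DMSO and 34.6 and 33.0 with DOX in the TAL1 line. LMO1-line values were 72.5 and 79.6, then 109 and 103 CPM. Double-line values were 44.3 and 42.8, then 79.4 and 84.3 CPM. The DOX libraries of the double line overlapped the DMSO libraries of the LMO1 line, and the 2 DOX libraries of the LMO1 line were the highest of all. The rise was 0.48 in the LMO1 line (SE 0.06, 1.39-fold, edgeR adjusted p = 1.6e-08) and 0.91 in the double line (SE 0.07, 1.88-fold, 6.2e-21); in the TAL1 line the change was 0.05 (95% interval -0.10 to 0.21). The authors' deposited table gives 0.48, 0.91 and 0.05 in the same order, with adjusted p-values of 2.8e-06, 6.3e-19 and 1.

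The difference between the single lines' responses of BMF, TAL1 less LMO1, was -0.43 (SE 0.10, edgeR adjusted p = 0.0067). BMF was the only 1 of the 9 members called there, where 0.939% of all genes were called (0.553% lower). That call was lost without TAL1 DMSO replicate 1 (adjusted p = 0.12), TAL1 DOX replicate 2 (0.067), LMO1 DMSO replicate 1 (0.077) or LMO1 DOX replicate 1 (0.078). The double line's response of BMF exceeded the TAL1 line's by 0.86 (SE 0.10, adjusted p = 2.7e-11), the LMO1 line's by 0.43 (SE 0.09, 3.4e-05) and their sum by 0.38 (SE 0.12, 0.0078). The excess over the sum missed the threshold without LMO1 DMSO replicate 2 (0.058) or TAL1 DMSO replicate 1 (0.052).

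BMF had 2 RefSeq windows, shown because its level moved in both lines with LMO1: chr15:40108830-40109129 and chr15:40106917-40107216, both on the minus strand of GRCh38.p14.
BMF window 1: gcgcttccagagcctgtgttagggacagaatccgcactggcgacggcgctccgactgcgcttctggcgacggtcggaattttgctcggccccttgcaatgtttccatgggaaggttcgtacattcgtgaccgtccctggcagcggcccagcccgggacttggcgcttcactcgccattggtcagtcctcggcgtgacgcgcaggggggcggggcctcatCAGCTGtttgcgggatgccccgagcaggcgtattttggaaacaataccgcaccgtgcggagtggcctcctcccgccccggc
BMF window 2: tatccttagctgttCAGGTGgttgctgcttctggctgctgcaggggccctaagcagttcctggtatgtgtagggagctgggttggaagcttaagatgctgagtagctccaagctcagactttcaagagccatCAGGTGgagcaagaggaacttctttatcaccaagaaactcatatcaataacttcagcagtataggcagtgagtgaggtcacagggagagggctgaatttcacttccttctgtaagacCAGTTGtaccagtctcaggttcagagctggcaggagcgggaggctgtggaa
The first holds CAGCTG, and the second holds CAGGTG at 2 places and another CANNTG. The form CAGCTG was in 1 of the 16 member windows and in 17.9% of all windows, CAGGTG in 2 (BMF and BAX) and 20.6%, and CAGATG in none and 14.7%. Any CANNTG was in 8 member windows, of 5 of 9 members, and in 68.7% of all windows; the more specific E-boxes are part of that count. GATAA, the core of GATA sites, was in 5 member windows of 3 members and in 22.7% of all.

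BID links the death receptors to mitochondria after caspase 8 cuts it, and it was the only member that fell. It read 75.8 and 81.9 CPM with DMSO and 75.0 and 71.8 with DOX in the TAL1 line, and 70.9 and 71.9, then 69.7 and 70.9 CPM in the LMO1 line. The double line read 78.6 and 78.8, then 48.9 and 51.8 CPM. The 2 DOX libraries of the double line were well below the other 10, which lay between 69.7 and 81.9 CPM. The change was -0.64 (SE 0.06, 1.56-fold lower, edgeR adjusted p = 7.6e-15), against -0.10 (95% interval -0.22 to 0.02) in the TAL1 line and -0.02 (-0.14 to 0.10) in the LMO1 line. The response of the double line was lower than that of the TAL1 line by -0.54 (SE 0.09, adjusted p = 2.4e-07), of the LMO1 line by -0.62 (SE 0.09, 6.8e-09) and of their sum by -0.52 (SE 0.11, 5.1e-05). The authors' deposited table gives -0.65 in the double line with an adjusted p of 1.4e-10.

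BBC3 encodes PUMA, a strong BH3-only killer that FOXO factors can induce. It was scarce, with 36 and 48 counts in the TAL1 line with DMSO and 41 and 42 with DOX, and 37 and 22, then 37 and 28 counts in the LMO1 line. The double line had 26 and 22 counts with DMSO and 75 and 77 with DOX, or 1.54 ± 0.18 and 4.69 ± 0.050 CPM. The 2 DOX libraries of the double line stood above all others, and their rise was 1.60 (SE 0.25, 3.03-fold, 95% interval 1.11 to 2.09, edgeR adjusted p = 3.8e-08). The intervals in the single lines were wide at this depth: -0.03 (-0.53 to 0.46) in the TAL1 line and 0.14 (-0.42 to 0.70) in the LMO1 line. The double line's response exceeded that of the TAL1 line by 1.63 (SE 0.35, adjusted p = 7.9e-05), that of the LMO1 line by 1.46 (SE 0.38, 9.8e-04) and their sum by 1.49 (SE 0.45, 0.0066). Without LMO1 DMSO replicate 1, the excess over the LMO1 line was 1.02 (adjusted p = 0.074) and over the sum 1.05 (0.12). FOXO3 rose in the double line by 0.99 on the log2 scale (55.8 to 111 CPM, edgeR adjusted p = 2.3e-24); it was singled out after its value was seen.

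Windows of BID and BBC3 are shown because both hold CACGTG, the E-box that MYC and MAX bind, and both genes changed in the double line, in opposite directions. The BID window is the fourth of its 5 and lies at chr22:17773993-17774292, and that of BBC3 lies at chr19:47232618-47232917, both on the minus strand of GRCh38.p14.
BID window 4: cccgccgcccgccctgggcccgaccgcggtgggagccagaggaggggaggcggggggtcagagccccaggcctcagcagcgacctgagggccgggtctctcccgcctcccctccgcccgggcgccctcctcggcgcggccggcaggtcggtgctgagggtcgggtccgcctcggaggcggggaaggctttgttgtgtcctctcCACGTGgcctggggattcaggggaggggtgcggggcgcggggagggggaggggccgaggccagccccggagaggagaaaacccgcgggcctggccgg
BBC3 window: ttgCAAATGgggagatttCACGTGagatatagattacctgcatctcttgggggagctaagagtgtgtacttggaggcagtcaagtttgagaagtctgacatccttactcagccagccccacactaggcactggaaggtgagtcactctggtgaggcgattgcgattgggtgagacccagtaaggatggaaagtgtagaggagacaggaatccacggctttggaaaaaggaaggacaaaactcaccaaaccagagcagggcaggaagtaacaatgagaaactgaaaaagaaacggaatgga
CACGTG was in 4 member windows, of BID (2 that overlap), BAX and BBC3, and in 7.3% of all windows. BBC3's window holds another CANNTG, and BAX's holds 5 CANNTG, of which 4 are CACGTG.

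BAD, a BH3-only protein that growth-factor signalling phosphorylates and silences, read 22.0 and 21.3 CPM with DMSO and 18.3 and 23.1 with DOX in the TAL1 line. The LMO1 line read 24.6 and 24.1, then 21.5 and 21.6 CPM, and in the TAL1/LMO1 line 25 and 26.6, then 27.8 and 26.7 CPM. The changes were -0.06 (95% interval -0.25 to 0.13), -0.17 (-0.36 to 0.01) and 0.08 (-0.10 to 0.25), none called, although the libraries did not overlap in the LMO1 and double lines. BAD overlaps GPR137 on the opposite strand, which had 12365 counts over the libraries; the strand setting of the counting is not stated, so reads of the pair cannot be told apart.

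BCL2L11 encodes BIM, a BH3-only protein central to the deletion of developing T cells, and almost none of its RNA was counted. It had 3 and 1 counts in the TAL1 line with DMSO and 1 and 0 with DOX, 3 and 4, then 5 and 7 in the LMO1 line, and 8 and 7, then 5 and 3 in the TAL1/LMO1 line. That made 47 counts in 12 libraries, with a highest level of 0.513 CPM, where 3 counts, the limit that a count of 0 allows, equal 0.188 to 0.202 CPM. Summed per group, the level in the double line was 0.482 CPM with DMSO (exact Poisson 95% interval 0.270 to 0.795) and 0.247 with DOX (0.107 to 0.487), and in the TAL1 line with DOX 0.0322 (0.000815 to 0.179); these intervals cover counting error only. The intervals of DMSO and DOX overlapped in each line, which is not a test of their difference, and none was run for this gene. Its protein-coding neighbours in RefSeq on either side, looked up after its counts were seen, were far higher (BUB1, 3322 to 6410 counts in a library, and ANAPC1, 1099 to 2602), higher (MERTK, 67 to 173) or as low (ACOXL, 0 to 7, and RGPD6, 0). BCL2L11 overlaps the long noncoding MIR4435-2HG on the opposite strand, with 8260 counts over the libraries. The strand setting of the counting is not stated, and an effect of this overlap on the counts of BCL2L11 was not tested.

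The lines differed with DMSO too, without any DOX. With DMSO, TAL1 had means of 3.97 CPM in the TAL1 line and 5.21 in the double line, against 0.131 in the LMO1 line. LMO1 had means of 2.84 CPM in the LMO1 line and 3.67 in the double line, against 0.195 in the TAL1 line. A part of these low transgene levels in the differences was not tested. BCL2 was highest in the double line, lower in the TAL1 line and lowest in the LMO1 line: 58.2 ± 0.57, 41.4 ± 1.1 and 30.9 ± 1.4 CPM. BMF had another order, 76.0 ± 5.0 CPM in the LMO1 line, 43.5 ± 1.0 in the double line and 32.6 ± 1.3 in the TAL1 line. All 3 pairs of lines differed for both genes, beyond the spread of their libraries. For BCL2 the difference was 0.42 (SE 0.08, edgeR adjusted p = 3.7e-06) for TAL1 over LMO1, 0.49 (SE 0.07, 5.5e-09) for the double line over TAL1 and 0.91 (SE 0.07, 1.7e-18) over LMO1. For BMF it was -1.22 (SE 0.07, 2.33-fold lower, adjusted p = 6.5e-26), 0.42 (SE 0.07, 2.2e-06) and -0.80 (SE 0.07, 1.3e-17) in the same order. Beside BCL2 and BMF, BAX was lower in the double line, by -0.43 (SE 0.07, 3.5e-07) against TAL1 and -0.44 (SE 0.07, 2.8e-07) against LMO1.

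Smaller differences with DMSO were BAK1 for TAL1 over LMO1 (0.32, SE 0.07, edgeR adjusted p = 2.1e-04), MCL1 for the double line over LMO1 (-0.17, SE 0.05, 0.0028) and, for the double line over TAL1, BAD (0.25, 0.019), BAK1 (-0.17, 0.046) and BBC3 (-0.82, 0.011). The last 3 lost their call with DESeq2's test (adjusted p = 0.10, 0.12 and 0.065) and also without single libraries: BAK1 without any 1 of the 4, BAD without TAL1 DMSO replicate 1 or 2 or double-line replicate 2, and BBC3 without TAL1 DMSO replicate 2 (-0.61, 0.17) or double-line replicate 2 (-0.71, 0.099). The call of MCL1 was lost with library totals (0.066). For TAL1 over LMO1, 2 members were higher and 1 lower, where 36.4% of all genes were called (18.5% and 17.8%). For the double line over TAL1 it was 3 and 3, where 45.4% were called (22.4% and 23.0%), and over LMO1 1 and 3, where 41% were called (20.4% and 20.6%). BCL2L1 was called in 0 of the 3, and BID missed the threshold for both lines over LMO1 (0.14 each, edgeR adjusted p = 0.056). BID passed it in both with the replicate number as a block (0.047). With library totals it passed for TAL1 (0.042) and for the double line (0.0045). It also passed for TAL1 with DESeq2 size factors (0.050 after rounding) and for the double line with only the compared groups (0.049). Without TAL1 DMSO replicate 1, the difference of BID for TAL1 over LMO1 was 0.20. BBC3 for TAL1 over LMO1 was 0.50 (adjusted p = 0.14), and 0.93 (0.035) without LMO1 DMSO replicate 1.

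**Figure D3:**
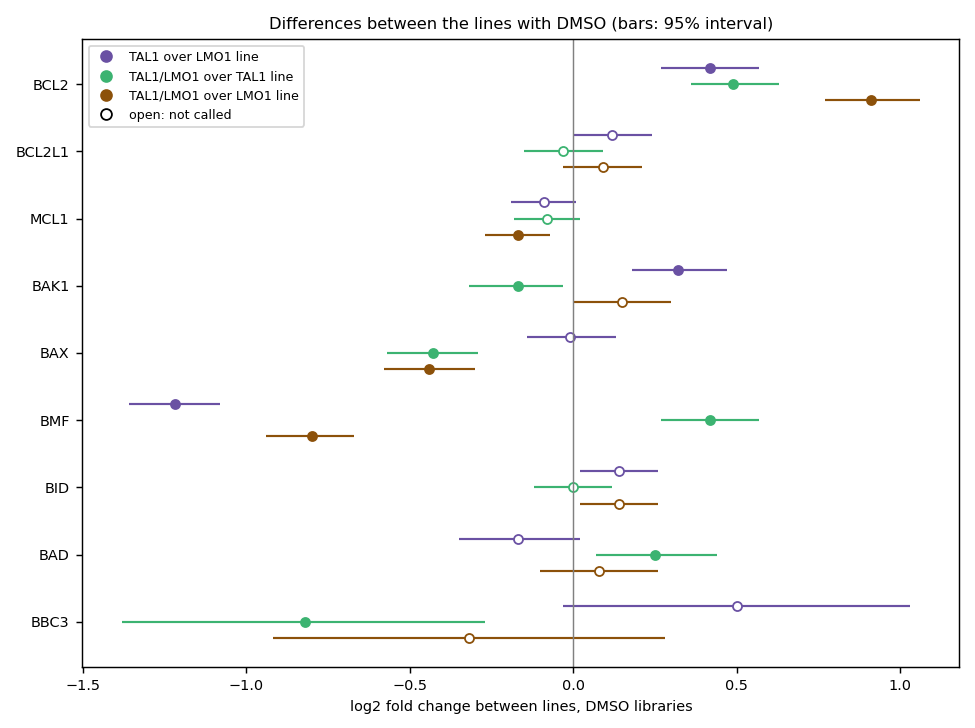
Differences between the lines with DMSO on the log2 scale for the 9 tested members; points are estimates, bars the 95% interval, and filled points are called. BCL2 and BMF are the members called in all 3 comparisons, with BMF on either side of 0.

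Within a library, each member was also set against BCL2, as counts per 100 BCL2 counts, a share that no scaling factor touches. Gene length fixes its size, so only its change across groups is described, with no test. MCL1 in the double line went from 305 and 304 with DMSO to 162 and 183 with DOX, and BCL2L1 from 153 and 153 to 84.5 and 104. BID went from 134 and 136 to 47.6 and 54.5, the steepest drop among the 8 members plotted, while BAX went from 67.1 and 78.2 to 49.7 and 54.7 and BAK1 from 69.0 and 70.4 to 45.0 and 49.4. The share of BMF read 75.5 and 74.1, then 77.3 and 88.6, and that of BBC3 went from 2.84 and 2.45 to 4.53 and 4.97. So in the double line with DOX, MCL1, BCL2L1, BAX, BAK1, BID and BAD (42.7 and 46.0, then 27.0 and 28.0) stood lower against BCL2 than with DMSO. BMF did not, and BBC3 stood higher. BCL2 itself rose 1.70-fold in that line, so any member that rose less stands lower by construction. Of those that stood lower, only BID was called lower by its own level, and BAX and BAK1 were called higher. In the LMO1 line BMF went from 227 and 266 to 332 and 321 per 100 BCL2 counts, and in the TAL1 line it read 82.6 and 75.3, then 85.5 and 85.2.

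**Figure D4:**
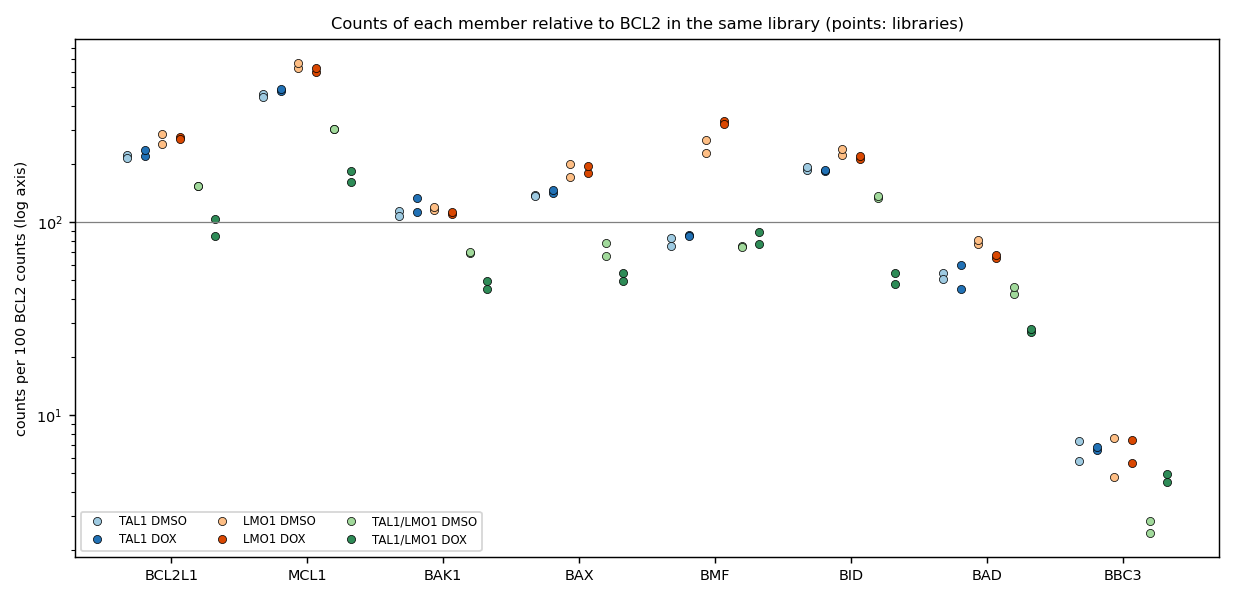
Counts of 8 members per 100 BCL2 counts in the same library (log axis), 1 point per library, coloured by line and treatment; the grey line marks 100. In the TAL1/LMO1 line the DOX points lie below the DMSO points for every member shown other than BMF and BBC3.

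The genes whose levels over the 6 groups lay nearest to those of the 3 widest-ranging members were found among 11026 genes, by the root mean square difference of centred log2 group means; this is a description, with no test. Nearest to BCL2 were ERBB2 (0.0508), SLC38A7 (0.0644) and PPP1R3E (0.0785). SLC38A7, for example, had 38.4 and 37.0 CPM in the LMO1 line, 47.2 and 49.1 in the TAL1 line and 66.8 and 109 in the double line (means with DMSO, then DOX). Nearest to BMF were TIMP1 (0.162), CYTH3 (0.193) and COL27A1 (0.206), and nearest to BBC3 were MID1IP1 (0.0977), C20orf194 (0.105) and FAM228B (0.109). No gene followed BMF as closely as the 3 nearest followed BCL2.

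Around the 10 members, 6 lists of genes from the same pathway were read in the double line, beside the 60.2% of all genes called there. Of 13 other BCL2 family members 11 were tested, with 4 higher and 2 lower and a median of 0.49 on the log2 scale. The BH3-only genes moved both ways: PMAIP1, which encodes the MCL1 partner NOXA, rose by 1.30 (SE 0.05, edgeR adjusted p = 1.2e-36), BIK fell by 0.93 (SE 0.14, 9.2e-09) and HRK fell by 1.22 (SE 0.24, 1.0e-05). BNIP3L, a mitophagy receptor, rose by 0.94 (SE 0.12, 4.8e-05), and the other two that rose were BCL2L10 and BCL2L15, both under 1.5 CPM. Downstream, 12 apoptosome and caspase genes were tested, 3 higher and 6 lower with a median of -0.15. APAF1, the scaffold of the apoptosome, rose by 0.74 (27.5 to 46.0 CPM), while CYCS, cytochrome c itself, fell by 1.31 (202 to 81.3 CPM) and PARP1, a caspase substrate, by 0.49.

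Of 7 caspase inhibitors and their antagonists, 3 rose and 3 fell with a median of 0.14: BIRC2 rose by 0.55 and BIRC6 by 0.28, and BIRC5, survivin, fell by 0.95 (64.1 to 33.2 CPM) and BIRC3 by 0.65. Of 13 genes of death receptors and their adaptors 9 were tested and 7 were higher, none lower, with a median of 0.46. Those higher included the receptor TNFRSF1A (0.98), its adaptor TRADD (0.55), CASP8 (0.46), whose protease cuts BID, and its inhibitor CFLAR (0.60). TNFRSF1A was the only receptor called, and the other receptors of the list were either not called or not tested. Of 17 transcriptional regulators of the family 16 were tested, 10 higher and 3 lower with a median of 0.38, among them STAT3 (2.29) and STAT5B (2.22) higher and MYC (-3.49) lower; STAT5A was higher by 5.41. Of 11 genes for turnover or binding of MCL1, BAK1, BAX and other family proteins, 3 were higher and 7 lower with a median of -0.25. FBXW7, a ligase subunit that marks MCL1 for degradation, fell by 1.73 (209 to 63.0 CPM), HUWE1, another MCL1 ligase, by 0.31, and the channels VDAC1 and VDAC2, to which BAX and BAK1 bind, by 1.02 and 0.80. Over all genes, 28.5% were higher and 31.7% lower; no list was tested against them.

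**Figure D5:**
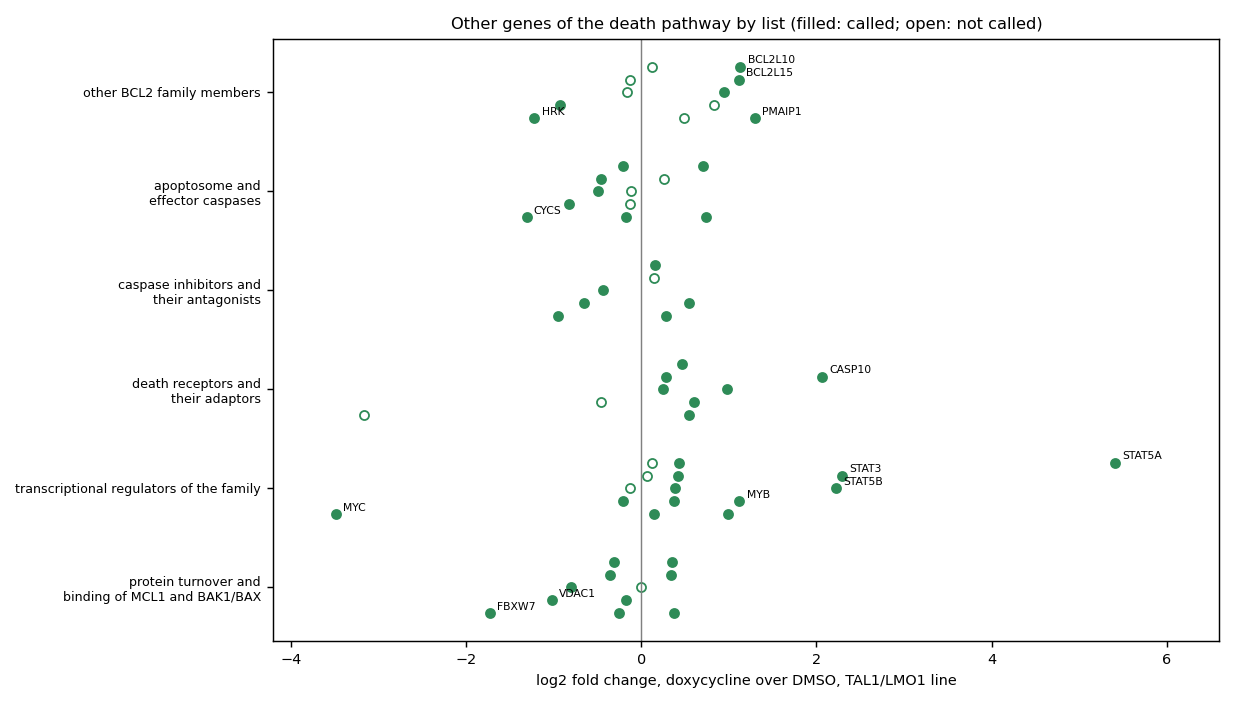
Change with DOX in the TAL1/LMO1 line (log2 scale) of the tested genes of 6 lists around the family that are reported here; 1 point per gene, spread vertically for legibility, filled where called, named where called and beyond 1.0 in size. Called genes of the list of death receptors and their adaptors all lie above 0, and the other lists hold called genes on either side.

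In the single lines few of these genes passed the test. In the LMO1 line STAT5B rose by 0.28 (SE 0.05, edgeR adjusted p = 1.1e-05) and STAT3 by 0.24 (SE 0.05, 0.0010), and FBXW7 fell by 0.38 (SE 0.05, 4.6e-07) and DYNLL1 by 0.19 (SE 0.05, 0.022). In the TAL1 line STAT3 rose by 0.24 (SE 0.05, 0.0018), BIRC3 by 0.24 (SE 0.06, 0.018) and STAT5B by 0.18 (SE 0.05, 0.017), and ATF4 fell by 0.17 (SE 0.04, 0.020) and DYNLL1 by 0.18 (SE 0.05, 0.042). DYNLL1 encodes a dynein light chain, and its relative DYNLL2 is the one that holds BMF. DYNLL2 was not called in either single line. In the double line DYNLL2 fell by 0.36 (151 to 117 CPM, edgeR adjusted p = 6.7e-09) and DYNLL1 by 0.25 (2.4e-05). A link of these changes to BMF was not tested. No other BCL2 family gene and none of the 12 apoptosome and caspase genes was called in either single line.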

How the data were processed

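Total RNA of 12 HPB-ALL libraries was sequenced. Per the submitters' processing notes, the tools were STAR 2.5.2a, featureCounts and DESeq2 1.12.4, on build hg19. The authors deposited raw counts per gene, with no normalization; neither the strand setting nor whether reads or pairs were counted is stated. The authors also deposited 1 DESeq2 table per line. Per the file headers, their columns are: mean signal (normalised counts), log2 fold change and its error, the Wald score, p-value and adjusted p-value. Their direction was read from the induced transgenes, and the model formula is not stated.

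From the deposited counts, edgeR 4.0.16 (R 4.3.3) kept 16287 genes by filterByExpr, scaled libraries by TMM and fitted a robust quasi-likelihood model with 1 mean for each of 6 groups (6 residual degrees of freedom, a median of 66.0 prior ones, prior count 0.125). Two-sided tests of 10 contrasts were adjusted by Benjamini-Hochberg over all genes, and called under 0.05. The SE is the change over the square root of F, or the counting error where larger. Replicates differed beyond counting noise (chi-square per degree of freedom 1.69 to 2.73). Alternatives were DESeq2 1.42.0, other scalings, no filter, only the compared groups, a replicate block and leaving out each library.

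All 10 members are named in every comparison; from each list, the 4 called genes with the smallest p in the double line and any called in a single line, apart from items that are not reported here. The members and lists were chosen with earlier results of these data known, so counts over them are no independent support. Gene lengths came from GENCODE 29 and promoter windows from RefSeq, both on another build than the counts, by identifier or symbol.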

Additional observations from a re-analysis of the deposited data

Results flagged for a closer look

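Responses to DOX of 5 members differed between lines by a test of the difference itself (edgeR's quasi-likelihood test, n = 2 libraries per group, adjusted over all genes). BMF responded less in the TAL1 line than in the LMO1 line (-0.43, SE 0.10, adjusted p = 0.0067). Against the TAL1 line, the TAL1/LMO1 line differed in BCL2 (0.83), BMF (0.86), BID (-0.54), BAX (0.29) and BBC3 (1.63). Against the LMO1 line it differed in BCL2 (0.69), BMF (0.43), BID (-0.62) and BBC3 (1.46). Against the sum of both single responses it differed in BCL2 (0.76), BMF (0.38), BID (-0.52) and BBC3 (1.49). In each of these, both libraries of a group share their line. The levels of TAL1 and LMO1 were highest in the double line with DOX. A part played by their amount thus cannot be told apart from that of their combination. With DMSO, the libraries of the double line differed from each other in LMO1 (0.449 and 6.89 CPM) and TAL1 (3.08 and 7.34 CPM). Groups of 2 libraries are too small for a check of single outlying libraries.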

How the results depend on the processing

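Of 1071 recomputed member values, 994 kept their direction and side of the threshold, 33 lost a call, 16 gained one and 28 changed sign, all of them uncalled both ways. Values of 0.00 in the main fit were not counted as changing sign. The responses of BCL2, BMF, BID and BBC3 in the TAL1/LMO1 line and of BMF in the LMO1 line kept their calls under every alternative run; with 1 library left out they ranged over 0.69 to 0.80, 0.85 to 0.94, -0.70 to -0.62, 1.48 to 1.71 and 0.41 to 0.55. The sign of BCL2L1 changed with library totals in the TAL1 line (0.02), in the double line's response against LMO1 (0.06) and the sum (0.04) and with DMSO against the TAL1 line (0.03), and against the sum also with DESeq2 size factors (0.01) and DESeq2's test (0.01). Library totals also turned MCL1 in the double line (0.04) and against the LMO1 response (0.03), and BAK1 in the LMO1 line (0.01). Counts moved more. In the TAL1 line, 160 genes were higher and 139 lower; with library totals 216 were higher and 57 lower, with DESeq2's test 70 were higher, and with only the compared groups 286 were lower. In the LMO1 line, 192 higher became 102 with DESeq2's test. Library totals gave 6 members with a larger response in the double line than in the LMO1 line in place of 3. With DMSO, DESeq2's test left 1 member lower in the double line than in the TAL1 line in place of 3; against the LMO1 line, library totals made 4 higher, only the compared groups 2 and the replicate block 2, in place of 1; the added member under the last 2 was BID, and the block changed no other member's call except BID for the TAL1 over the LMO1 line. Genes higher and lower with DMSO in the double line than in the LMO1 line were 3328 and 3350, and 4103 and 2459 with library totals. With library totals, genes higher and lower in the double line were 5611 and 4277, against 4644 and 5168; its median change over all genes was 0.09 with totals, -0.01 with TMM and 0.00 with DESeq2 size factors.

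With 1 library left out (the lone library assumed to vary like the other groups), the genes called were 63 to 108 higher and 31 to 48 lower in the TAL1 line, and 82 to 149 higher and 70 to 135 lower in the LMO1 line. For the TAL1 against the LMO1 response they were 40 to 66 higher and 58 to 93 lower, with 0 to 1 members lower. Members higher in the double line were 3 to 5, the lowest without DMSO replicate 1, and members lower with DMSO in that line than in the TAL1 line 1 to 2. Some values of 0.00 with all libraries fell on either side of 0 with 1 library left out. They were BAX in the TAL1 line (-0.02 to 0.02), MCL1 in the LMO1 line (-0.02 to 0.01) and, with DMSO, BID for the double line over TAL1 (-0.06 to 0.05). Other changes in sign with 1 library left out were these. In the TAL1 line, BCL2L1 ranged over -0.03 to 0.02, BAD -0.24 to 0.10 and BBC3 -0.22 to 0.18. In the LMO1 line, BAK1 ranged over -0.03 to 0.01 and BBC3 -0.19 to 0.57, and in the double line BCL2L1 -0.05 to 0.14. For the TAL1 against the LMO1 response, BAD ranged over -0.07 to 0.28 and BBC3 -0.60 to 0.15. For the double line's response, BCL2L1 ranged over -0.04 to 0.15 against TAL1, -0.13 to 0.06 against LMO1 and -0.13 to 0.06 against the sum, and BAD -0.04 to 0.30 against TAL1. With DMSO, BAX for TAL1 over LMO1 ranged over -0.07 to 0.06 and BBC3 for the double line over LMO1 -0.65 to 0.10.

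Deviations of same-numbered DMSO and DOX libraries had correlations of 0.01, 0.00 and -0.02 in the TAL1, LMO1 and double lines, over all tested genes. Whether libraries with the same number shared a batch is not stated, and it was not tested. The causes of the changes with processing or with a library left out were not tested either. The fit with only the compared groups was not run for the sum of responses, which uses all groups. Depth limits BCL2L11 and BBC3 most.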
